A study of Mus musculus with 4 samples.

Results

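The genes described here make, lengthen and desaturate fatty acids. They comprise the stearoyl-CoA desaturases Scd1, Scd2 and Scd3, the front-end desaturases Fads1 and Fads2, the elongases Elovl1, Elovl5 and Elovl6, the fatty acid synthase Fasn and the lipogenic transcription factor Srebf1. The set was named by symbol as the lipogenic arm downstream of the liver X receptors. Of the 10 symbols, 9 were matched among the 13658 genes of the authors' deposited table, and Fads2 was not analysed here. All 9 had an adjusted p, so none was lost to the filter on low counts.

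RNA came from wild-type mouse morulae, the stage at which the blastomeres compact before a blastocyst cavity forms. In 2 samples fertilized 1-cell eggs had received a small interfering RNA pool against Nr1h2 (siNr1h2), which encodes LXRβ, and in 2 samples a non-targeting pool (siNT). Both pools were given as 4 to 5 pL at 100 µM, and the embryos then grew in M16 medium. The labels give neither strain nor number of embryos per sample, and nothing says that replicates were separate injection sessions, so the p-values measure the spread between these samples, which may be technical. The data are 1 comparison of siNr1h2 with siNT by DESeq2, without values per sample. The depth of each library is therefore unknown, and no value per sample can be shown.

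Liver X receptors are nuclear receptors that bind oxysterols and pair with retinoid X receptors on DNA. In mouse liver they switch on Srebf1, whose product SREBP-1c in turn raises the genes of fatty acid synthesis, and they act directly on some of those genes, Scd1 and Fasn among them. Fatty acid synthase builds palmitate from malonyl-CoA, ELOVL enzymes add carbon pairs, and desaturases insert double bonds. SCD enzymes do so in saturated chains to give monounsaturated fatty acids, and FADS enzymes in polyunsaturated ones.

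The siRNA target itself stood at 19.9% of the siNT level in siNr1h2 morulae per the authors' deposited table (95% interval 15.4% to 25.7%), so the comparison is one of reduced, not absent, Nr1h2 RNA. Embryo markers were present, since all 11 of the list (Pou5f1, Nanog and Cdx2 among them) had mean normalized counts between 90.8 and 3257 per the authors' deposited table. Of 10 cumulus and granulosa cell markers 3 were analysed, at mean normalized counts of 1.94 to 29.6, of 8 blood markers 2 (24.6 and 328) and of 6 sperm markers none, and the 6 oocyte markers lay between 5.32 and 78.1. Among these markers 1 passed, the trophectoderm keratin gene Krt8, with a log2 fold change of -0.50 ± 0.14 (SE) per the authors' deposited table (adjusted p = 0.0211), and its part in the values below was not tested. Over all tested genes 1.52% were lower at an adjusted p of 0.05. At an unadjusted p of 0.05, 4 of the 19 tested markers were lower and 2 higher, against 7.31% and 5.97% of all tested genes, a contrast that was not tested. The lower ones were Krt8, the keratin gene Krt18 (-0.27 ± 0.13) and the oocyte genes Zp3 (-0.73 ± 0.32) and Bmp15 (-1.42 ± 0.66), and the higher ones the pluripotency gene Pou5f1 (0.43 ± 0.15) and the blood marker Cd74 (0.42 ± 0.19), as log2 fold changes ± SE per the authors' deposited table. In bulk samples, fewer cells of a type and less RNA per cell cannot be told apart.

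Within the lipogenic set, the Scd desaturases and Srebf1 lay lowest, and the synthase, Fads1 and the elongases lay near or above 0. At a DESeq2 adjusted p of 0.05, Scd1 and Scd3 fell in siNr1h2 morulae, no gene of the set rose and 7 did not pass, by the authors' deposited table. These 2 are 22.2% of the 9 genes. Over all 12069 tested genes 1.98% were called, 1.52% lower and 0.456% higher. At an unadjusted p of 0.05 the set held 4 lower genes, which added Scd2 and Srebf1, and 0 higher ones, against 7.31% lower and 5.97% higher over all tested genes. The genes of the set were chosen with earlier results of these data known, so these shares are not independent of that choice. The median log2 fold change of the 9 genes was -0.17, with 7 below 0 and 2 above, and that of all tested genes 0.00, per the authors' deposited table. Neither fall passed under Holm adjustment (adjusted p = 0.115 for Scd1 and 0.47 for Scd3) or with a t distribution of 2 degrees of freedom, where no gene of the table did. With fold changes centred on ribosomal protein genes, a shift of -0.11, Scd2 and Srebf1 passed as well (adjusted p = 0.0149 and 0.0288).

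**Figure D1:**
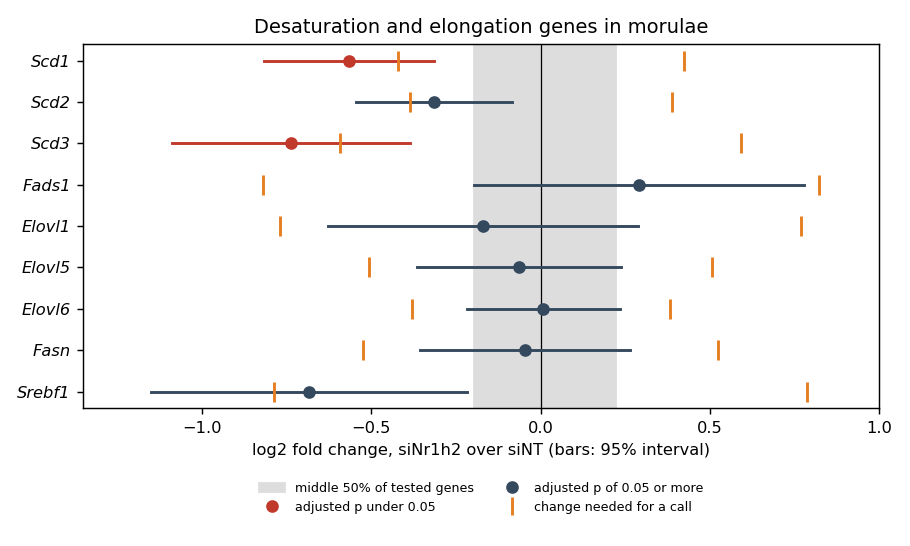
Log2 fold change of each gene of the set, siNr1h2 over siNT (x axis; points, with 95% intervals as bars), per the authors' deposited table. Orange marks show the change each gene needed to be called, and the grey band the middle 50% of tested genes. Scd1 (-0.57) and Scd3 (-0.74) lie beyond their marks, Srebf1 (-0.68) and Scd2 (-0.32) short of theirs, and the other 5 genes have intervals that include 0.

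The Scd genes encode membrane enzymes of the endoplasmic reticulum that make palmitoleate and oleate. In adult mice Scd1 is the form of liver and fat, Scd2 is prominent in brain and in early development, and Scd3 is known from skin glands. The 3 genes are close copies, and their coding sequences were 91.5% identical between Scd1 and Scd3, 90.3% between Scd1 and Scd2 and 88.3% between Scd2 and Scd3 over the aligned bases. The stretch below is shown because it holds the longest coding run that Scd1 and Scd3 share, 185 bases, where short reads of one gene could be counted for the other. The lines give 240 coding bases of each GENCODE transcript (coding bases 435 to 674 of Scd1, 444 to 683 of Scd2 and 447 to 686 of Scd3), and capitals mark bases that differ from Scd1.
Scd1: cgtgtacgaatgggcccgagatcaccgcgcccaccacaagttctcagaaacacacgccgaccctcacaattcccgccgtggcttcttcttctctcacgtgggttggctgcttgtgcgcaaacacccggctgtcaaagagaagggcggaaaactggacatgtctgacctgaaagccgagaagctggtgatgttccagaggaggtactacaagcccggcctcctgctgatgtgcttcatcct
Scd2: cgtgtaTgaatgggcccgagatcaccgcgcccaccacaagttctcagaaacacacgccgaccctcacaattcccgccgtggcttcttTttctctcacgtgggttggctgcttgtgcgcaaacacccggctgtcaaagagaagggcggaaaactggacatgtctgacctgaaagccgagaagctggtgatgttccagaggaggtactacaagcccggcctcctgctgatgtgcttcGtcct
Scd3: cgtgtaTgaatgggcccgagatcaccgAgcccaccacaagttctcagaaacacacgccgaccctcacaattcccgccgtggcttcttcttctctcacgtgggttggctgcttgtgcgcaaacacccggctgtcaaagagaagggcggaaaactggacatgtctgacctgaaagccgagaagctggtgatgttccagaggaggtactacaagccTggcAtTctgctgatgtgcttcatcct

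Within this window Scd2 differed from Scd1 at 3 bases and Scd3 at 5. Over whole transcripts, most of which lie outside the coding sequence, the copies were easier to tell apart. Of all 50-base stretches, 3.49% of those of Scd1 and 4.85% of those of Scd3 occurred identically in the other of the pair. Scd2 shared 2.68% of its stretches with Scd1. Counted against any other gene, the shared part at 50 bases was 4.66% for Scd1, 4.01% for Scd2 and 6.69% for Scd3. It was 4.59% for Elovl6, of which 3.81% was shared with the annotated gene Gm11295. At 100 bases the shared part was 1.82% for Scd1 with Scd3, 2.54% for Scd3 with Scd1 and 0.896% for Scd2 with Scd1. Neither the read length nor how reads with several matching copies were counted is given in the sources used here. The values of single Scd genes and of Elovl6 keep that uncertainty.

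Scd1 had a mean normalized count of 1753 per the authors' deposited table. If that mean is taken over the 4 samples, 2 a group, the deposited fold change implies about 1414 in siNr1h2 and 2093 in siNT morulae. The transcript stood at 67.6% of the siNT level (95% interval 56.8% to 80.4%; log2 fold change -0.57 ± 0.13 (SE), adjusted p = 0.00196), and its p ranked 59 among all tested genes per the authors' deposited table. The fall, 1.48 times, was short of 1.5 times.

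Scd3 was the steepest member by log2 fold change per the authors' deposited table. Its mean normalized count of 433 implies about 325 in siNr1h2 and 541 in siNT morulae. That is 60.0% of the siNT level (95% interval 47.0% to 76.5%), a fall of 1.67 times (1.31 to 2.13) or -0.74 ± 0.18 (SE) on the log2 scale, with an adjusted p of 0.00557 per the authors' deposited table.

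Scd2, the most abundant of the 3 per length, had a mean normalized count of 4273 and implied means of about 3807 in siNr1h2 and 4739.6 in siNT morulae from the authors' deposited table. It stood at 80.3% of the siNT level (95% interval 68.5% to 94.2%) at -0.32 ± 0.12 (SE) on the log2 scale, which did not pass (DESeq2 adjusted p = 0.155). A change of 1.31 times would have been needed to call it at this precision. With a length and GC trend removed, the log2 fold changes of Scd1, Scd2 and Scd3 were -0.52, -0.31 and -0.71. The 2 centrings subtract a constant from every gene (-0.04 or 0.11), too small to change the sign of these 3.

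Among the 3 desaturases, 1 of the 3 differences had an interval that excluded 0, that of Scd2 and Scd3. With errors taken as independent, the log2 fold change of Scd1 minus that of Scd3 was 0.17 (95% interval -0.26 to 0.60), and that of Scd1 minus that of Scd2 was -0.25 (-0.59 to 0.09). Scd2 minus Scd3 gave 0.42, with an interval of 0.00 to 0.84 whose lower bound lay just above 0.

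Summed over the copies, which does not depend on how reads were shared among them if each was counted once, the implied level was 5545 in siNr1h2 and 7374 in siNT morulae, or 75.2% of siNT. No error can be attached to this sum, because the table gives no covariance between genes. Of the summed difference Scd2 made up 51.0%, Scd1 37.1% and Scd3 11.8%. The uncalled Scd2 thus held the largest part in normalized counts, while the smaller Scd3 had the steepest fold change. As a share of the pool, Scd2 made up 68.6% in siNr1h2 and 64.3% in siNT morulae. Scd1 made up 25.5% in siNr1h2 and 28.4% in siNT, and Scd3 5.86% in siNr1h2 and 7.34% in siNT.

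**Figure D2:**
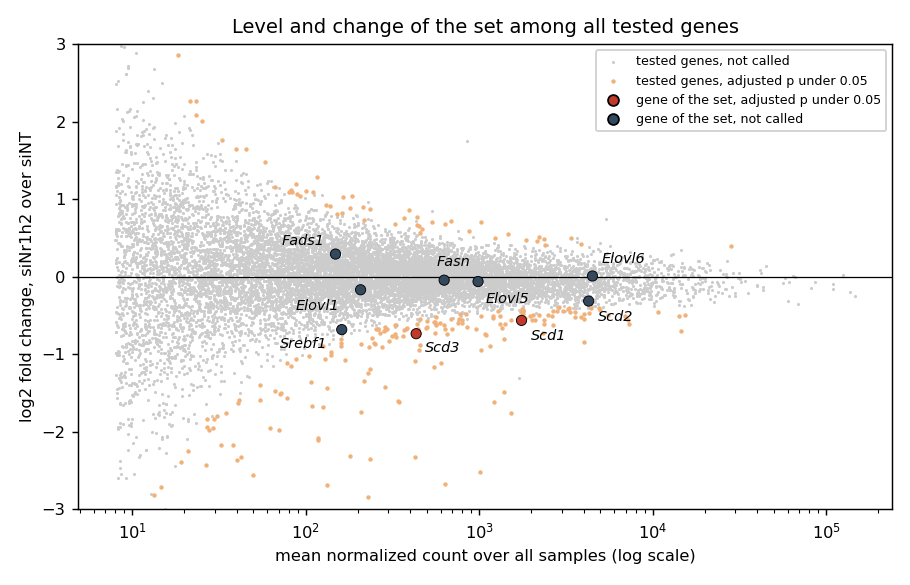
Log2 fold change (y axis) against mean normalized count over all samples (x axis, log scale) for the tested genes of the authors' deposited table, with the 9 genes of the set outlined; 18 tested genes beyond 3 in either direction are not drawn. Scd1 and Scd3 lie on the lower edge of the cloud among called genes. Scd2 and Elovl6, with mean normalized counts of 4273 and 4498, lie at its right, with log2 fold changes of -0.32 and 0.01.

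The Scd genes lie side by side on mouse chromosome 19, in the order Scd3, Scd2, Scd4 and Scd1 in the RefSeq annotation of GRCm38.p6, and Scd4 was not analysed here. The nearest tested genes on either side did not pass. Before the cluster, Cwf19l1 and Bloc1s2, a subunit of lysosome-positioning complexes, had log2 fold changes of -0.09 ± 0.21 (SE) and 0.08 ± 0.12 per the authors' deposited table. Pkd2l1, a channel gene whose annotated span in RefSeq runs across Scd3, had a mean normalized count of 11.4 and a log2 fold change of 1.44 ± 0.84. Beyond Scd1, the respiratory chain gene Ndufb8 stood at -0.01 ± 0.11, the asparaginyl hydroxylase gene Hif1an at -0.27 ± 0.21 and the DNA repair factor gene Slf2 at -0.07 ± 0.17 per the authors' deposited table. No exon of Scd1 or Scd3 overlapped an exon of another gene in the GENCODE annotation.

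**Figure D3:**
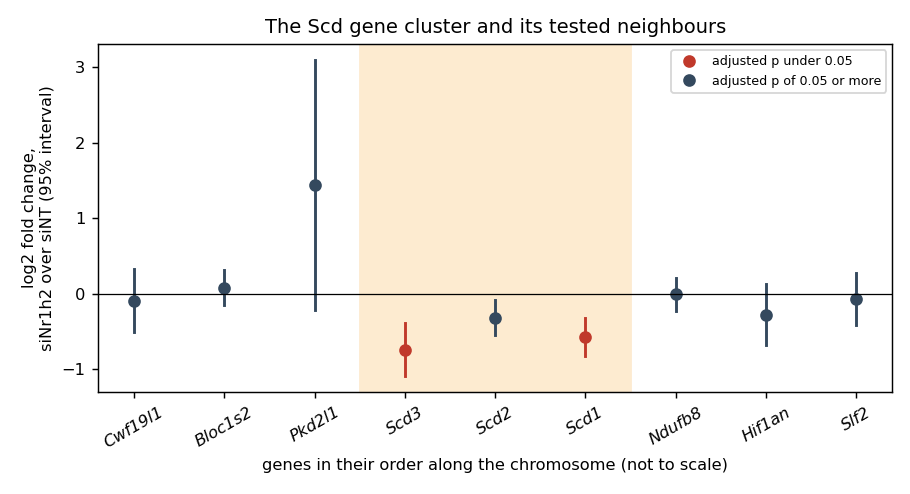
Log2 fold change (y axis; points, with 95% intervals as bars) of the 3 Scd genes (shaded) and of the 3 nearest tested protein-coding genes on each side, in chromosomal order, from the authors' deposited table. The Scd genes lie between -0.74 and -0.32, and each of the 6 neighbours has an interval that includes 0; that of Pkd2l1, with a mean normalized count of 11.4, is the widest.

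Srebf1 encodes the SREBP-1a and SREBP-1c precursors, and its 1c form is a direct target of liver X receptors in mouse liver. It was the gene of lowest level per length in the set, at a mean normalized count of 161 per the authors' deposited table, which implies about 124 in siNr1h2 and 199 in siNT morulae. It stood at 62.2% of the siNT level (95% interval 45.0% to 86.0%) with a log2 fold change of -0.68 ± 0.24 (SE), which did not pass (DESeq2 adjusted p = 0.115). Its fold change was close to that of Scd3 (Scd3 minus Srebf1, -0.05, 95% interval -0.64 to 0.53) on a mean count lower than that of Scd3. At its precision a change of 1.72 times was needed for a call. Of its exonic bases 1.93% overlapped exons of Rai1 on the opposite strand. Rai1 had a mean normalized count of 39.9 and a log2 fold change of 0.79 ± 0.44 per the authors' deposited table, and a library kit that does not mark strand cannot separate reads from that overlap.

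Fasn carries out all steps of palmitate synthesis on a single polypeptide. It had a mean normalized count of 628 per the authors' deposited table, with implied means of about 618 in siNr1h2 and 638 in siNT morulae. Its level was 96.8% of siNT (95% interval 78.0% to 120.1%), or -0.05 ± 0.16 (SE) on the log2 scale (adjusted p = 0.941). The log2 fold change of Scd1 minus that of Fasn was -0.52 (95% interval -0.92 to -0.12), and that of Srebf1 minus that of Fasn -0.64 (-1.20 to -0.08). Scd3 minus Fasn gave -0.69 (-1.16 to -0.22). Scd2 minus Fasn gave -0.27, with an interval that included 0 (-0.66 to 0.12).

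RefSeq promoter windows, 250 bases before to 50 after a transcript start, were at hand for 6 of the 9 genes (9 windows). Scd1, Scd2 and Fads1 had no window, so their promoters were not searched. Those of Scd3 and Srebf1, the pair with the lowest fold changes, are printed with that of Fasn, which stood near 0. Coordinates and strand are of GRCm38.p6, a later build than the mm9 of the submitters' processing notes, and the table does not say which Srebf1 start gives which form. Motifs were searched on both strands, and capitals mark each exact match.
Scd3, chr19:44203038-44203337, plus strand: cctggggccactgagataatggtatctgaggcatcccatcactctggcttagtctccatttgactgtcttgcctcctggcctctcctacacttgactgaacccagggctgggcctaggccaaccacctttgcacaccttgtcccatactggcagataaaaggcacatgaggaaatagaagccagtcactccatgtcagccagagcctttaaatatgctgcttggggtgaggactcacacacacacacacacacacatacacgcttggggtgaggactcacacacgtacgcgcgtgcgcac
Srebf1, chr11:60222532-60222831, minus strand: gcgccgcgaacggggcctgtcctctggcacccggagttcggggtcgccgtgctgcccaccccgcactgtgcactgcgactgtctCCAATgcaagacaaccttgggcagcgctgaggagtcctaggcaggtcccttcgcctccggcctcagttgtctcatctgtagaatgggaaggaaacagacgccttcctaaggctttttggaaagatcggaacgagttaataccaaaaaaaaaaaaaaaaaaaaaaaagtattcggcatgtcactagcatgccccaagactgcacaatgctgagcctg
Srebf1, chr11:60220578-60220877, minus strand: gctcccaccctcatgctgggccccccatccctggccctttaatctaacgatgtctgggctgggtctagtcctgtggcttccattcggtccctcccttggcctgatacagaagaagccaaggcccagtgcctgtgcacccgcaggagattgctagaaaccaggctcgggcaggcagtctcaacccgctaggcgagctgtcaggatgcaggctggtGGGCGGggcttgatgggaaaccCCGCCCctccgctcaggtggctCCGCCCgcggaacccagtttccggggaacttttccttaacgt
Srebf1, chr11:60210422-60210721, minus strand: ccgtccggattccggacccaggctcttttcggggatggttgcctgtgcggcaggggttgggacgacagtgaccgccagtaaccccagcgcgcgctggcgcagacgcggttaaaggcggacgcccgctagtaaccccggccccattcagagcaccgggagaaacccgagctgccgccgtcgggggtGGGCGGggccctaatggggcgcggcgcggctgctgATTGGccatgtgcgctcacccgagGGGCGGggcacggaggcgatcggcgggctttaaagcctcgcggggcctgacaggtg
Fasn, chr11:120824498-120824797, minus strand: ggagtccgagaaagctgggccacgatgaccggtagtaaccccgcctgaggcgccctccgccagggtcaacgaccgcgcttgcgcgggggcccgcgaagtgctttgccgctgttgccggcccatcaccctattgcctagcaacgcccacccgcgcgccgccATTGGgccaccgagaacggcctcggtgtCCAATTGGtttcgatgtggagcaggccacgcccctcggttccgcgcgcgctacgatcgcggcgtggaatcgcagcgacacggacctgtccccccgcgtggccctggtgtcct

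The motif of the liver X receptor dimer was taken as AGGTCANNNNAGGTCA, which contains the nuclear receptor half-site AGGTCA. It occurred in 5 of all 32851 promoter windows (0.0152%) and in none of the 9 windows of the set. A form this rare was unlikely to occur in 9 windows, so its absence tells nothing about binding by the receptors. The half-site alone occurred in 16.3% of all windows and in 2 of the set, those of Elovl6 and of 1 Elovl1 start. The sterol response element TCACNCCAC, the site of SREBP proteins, was in 1.24% of all windows and in none of the 9 windows of the set. The NF-Y box CCAAT, in 37.4% of all windows, matched at 3 places in the Fasn window, the last 2 of which overlap, at 2 places in that of Elovl5 and at 1 place in each of 2 Srebf1 windows and 1 Elovl1 window. The GC box GGGCGG, in 35.7%, was in 4 windows of the set, with 5 and 2 matches in those of Elovl1 and 3 and 2 in those of Srebf1. The E-box CACGTG, in 7.15%, matched 1 time, in the window of Elovl5. The Scd3 window held none of the 6 motifs. A match or its absence describes these letters in these windows alone, and sites that depart from the letters were not searched.

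Of the front-end desaturases, Fads1, the delta-5 desaturase that completes arachidonate, was analysed. It was the highest of the set by log2 fold change, at 0.29 ± 0.25 (SE, adjusted p = 0.676) with a mean normalized count of 149 per the authors' deposited table, which implies about 163 in siNr1h2 and 134 in siNT morulae. The 95% interval of its level, 87.2% to 171% of siNT, includes no change. Its log2 fold change lay above that of all 3 Scd genes. Scd1 minus Fads1 gave -0.86 (95% interval -1.40 to -0.31), Scd3 minus Fads1 -1.03 (-1.63 to -0.43) and Scd2 minus Fads1 -0.61 (-1.15 to -0.07).

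The elongases did not pass. Elovl6, which lengthens palmitate to stearate and so makes the substrate of SCD enzymes, had a mean normalized count of 4498 and a log2 fold change of 0.01 ± 0.12 (SE, adjusted p = 0.991) per the authors' deposited table, a value that turned to -0.10 when fold changes were centred on ribosomal protein genes. Its implied means were about 4509 in siNr1h2 and 4487 in siNT morulae, and the 95% interval of its level, 85.9% to 118% of siNT, was the narrowest of the set on the log2 scale. Elovl5, which acts on polyunsaturated chains, stood at -0.06 ± 0.15 (adjusted p = 0.912) with implied means of about 963 in siNr1h2 and 1007 in siNT morulae from the authors' deposited table. Elovl1, the elongase of very long saturated chains, stood at -0.17 ± 0.23 (adjusted p = 0.817) with implied means of about 195 in siNr1h2 and 219 in siNT morulae. Its exons overlapped those of the mitotic regulator gene Cdc20 on the opposite strand over 1.94% of its exonic bases. Cdc20 had a mean normalized count of 2246 and a log2 fold change of -0.06 ± 0.12 per the authors' deposited table.

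Over the 36 pairs of the 9 genes, 15 differences in log2 fold change had an unadjusted 95% interval that excluded 0. Of these, 14 set an Scd gene or Srebf1 against Fasn, Fads1 or an elongase, out of 20 such pairs. Among Fasn, Fads1 and the elongases it was 0 of 10. The share over pairs of all tested genes was not computed. Of the 20 pairs, those whose interval included 0 were every pair with Elovl1, and Scd2 against Fasn and against Elovl5. Scd3 minus Elovl1 gave -0.57 (95% interval -1.14 to 0.01) and Scd1 minus Elovl1 -0.40 (-0.92 to 0.13). Srebf1 minus Elovl1 gave -0.51 (-1.17 to 0.14) and Scd2 minus Elovl1 -0.15 (-0.66 to 0.37). The Scd genes against Elovl6 gave -0.57 for Scd1 (95% interval -0.91 to -0.24), -0.74 for Scd3 (-1.16 to -0.33) and -0.32 for Scd2, with an upper bound of 0.00 that lay just below 0. The pairs share genes and libraries and are not independent. The groups compared also follow the order of the fold changes, since the Scd genes and Srebf1 were the lowest of the set. Counts between and within these groups largely follow from that order and do not test the split.

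Per length, the level of the set spanned a wide range. On the scale of mean normalized count per kilobase of transcript, Scd2 (783) and Elovl6 (756) were highest, followed by Scd1 (363), Elovl5 (354), Scd3 (124), Elovl1 (114), Fasn (62.5), Fads1 (42.9) and Srebf1 (37.5), from the authors' deposited table and GENCODE transcript lengths. Whether neighbours in this order differ was not tested, because the spread over samples is unknown. The genes with the lowest counts had the widest intervals. A change of the size of Scd1's, 1.48 times, would not have been called in Srebf1, Fads1 or Elovl1, which needed 1.72, 1.77 and 1.70 times. Scd3 needed 1.51 times, also just above that size.

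Beyond the set, 8 lists of the wider lipogenic pathway named 68 genes, of which 58 were analysed and 55 had an adjusted p. Of these 55 the authors' deposited table called 1 lower (1.82%) and 0 higher, against 1.52% lower and 0.456% higher over all tested genes. The few calls in these lists are therefore close to the share over all tested genes. The lower gene was Acsl4, the acyl-CoA synthetase that prefers arachidonate, at a log2 fold change of -0.89 ± 0.20 (SE, adjusted p = 0.00249), or 54.0% of siNT (95% interval 40.9% to 71.2%). At an unadjusted p of 0.05, 4 of the 55 were lower and 2 higher, against 7.31% and 5.97% of all tested genes. The median log2 fold change over the 55 was -0.01, with 30 below 0 and 25 above.

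**Figure D4:**
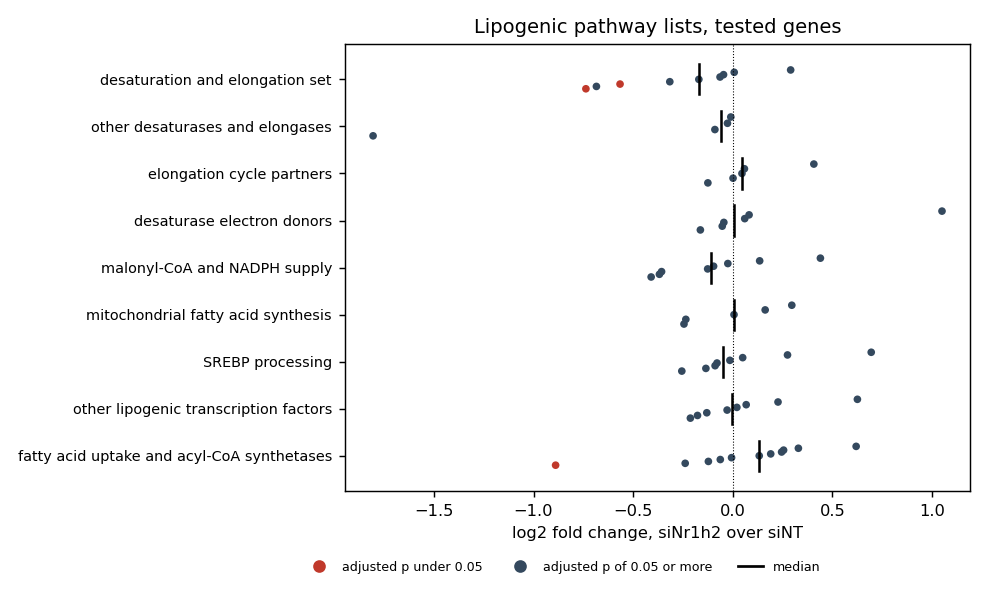
Log2 fold change, siNr1h2 over siNT (x axis), of each tested gene of the set and of 8 pathway lists (rows; points are genes, vertical bars medians), from the authors' deposited table. Red points mark an adjusted p under 0.05: Scd1 and Scd3 in the top row and Acsl4 in the bottom row. List medians lie between -0.17 in the set and 0.13 in the uptake list.

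None of the 4 tested relatives in the desaturase and elongase families passed. Fads3, the FADS family member of the same cluster on chromosome 19, had a log2 fold change of -1.81 ± 0.55 (SE, adjusted p = 0.0540) at a mean normalized count of 28.8 per the authors' deposited table. Elovl7 stood at -0.09 ± 0.16, and Fads6, with a mean normalized count of 3.45, had no adjusted p. In the elongation cycle the ELOVL step is followed by reductases and a dehydratase, and none of their 5 tested genes passed. The dehydratase gene Hacd2 stood at 0.41 ± 0.16 (adjusted p = 0.195), Hacd3 at 0.06 ± 0.18 and the ketoreductase gene Hsd17b12 at -0.13 ± 0.14 per the authors' deposited table. Desaturases take electrons from cytochrome b5, and none of the 6 genes of cytochrome b5 and its reductases passed. Cyb5r2 stood at 1.05 ± 0.70, Cyb5b at -0.16 ± 0.14 and Cyb5r4 at 0.08 ± 0.14 per the authors' deposited table.

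None of 8 genes that supply fatty acid synthase passed. Me1, the malic enzyme that yields NADPH, had a log2 fold change of -0.41 ± 0.13 (SE, adjusted p = 0.0565) at a mean normalized count of 1781 per the authors' deposited table. The acetyl-CoA carboxylase gene Acacb stood at 0.44 ± 0.30 and the lipogenesis regulator gene Thrsp at -0.36 ± 0.26. None of 5 genes of mitochondrial fatty acid synthesis passed, with Mcat at 0.30 ± 0.20, Ndufab1 at 0.16 ± 0.12 and Mecr at -0.25 ± 0.20 per the authors' deposited table. None of 8 genes of SREBP processing passed either. Scap, the escort that carries SREBP precursors to the Golgi, stood at 0.69 ± 0.22 (adjusted p = 0.0614), Mbtps2, a protease that releases them, at -0.26 ± 0.17 and Rnf139 at -0.14 ± 0.17 per the authors' deposited table. Of 8 other lipogenic transcription factor genes none passed, with Nfyb at -0.21 ± 0.14, Mlxipl (ChREBP) at 0.63 ± 0.47 and Sp1 at -0.18 ± 0.13. Of 11 genes of fatty acid uptake and activation, 1 was lower, Acsl4, and 10 did not pass. The fatty acid binding protein genes Fabp3 and Fabp5 stood at -0.24 ± 0.11 and 0.24 ± 0.13 per the authors' deposited table.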

How the data were processed

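Polyadenylated RNA of 2 siNr1h2 and 2 siNT samples of mouse morulae was amplified as full-length cDNA with a SMART-Seq v4 kit and made into Nextera XT libraries, which do not mark strand, per the labels' protocols. The submitters' processing notes name DESeq2, edgeR, HTSeq 0.12.4, Cufflinks 2.2.1, STAR, RSEM and the build mm9, without roles. The deposited table gives, per the file headers, the mean normalized count (the authors' signal after division by size factors), the authors' log2 fold change and its standard error, the authors' Wald statistic (a score), and the authors' p-value and adjusted p-value (Benjamini-Hochberg over 12069 of 13658 genes; the other 1589 had means up to 8.00). The statistic equalled fold change over standard error, and no source used here says whether fold changes were shrunk. The header names no direction, and fold changes were read as siNr1h2 over siNT, the order in the table's name and the sign under which the siRNA target is lower in siNr1h2. Depth per sample is unknown, and no test per gene could be rerun.

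The members and gene lists were chosen with earlier results of these data known. Intervals are 1.96 standard errors. Implied group means assume a mean over 2 equal groups. Differences between genes assume independent errors and carry no p. The change needed for a call is the Wald statistic of the largest called p (3.30) times the standard error. Alternatives changed the centring, the adjustment, the p threshold, the filter on low counts, the smallest fold called, the distribution and a length and GC trend. Genes named are all members and, per pathway list, called genes and the 3 smallest p-values. Transcript length, GC content, exons and sequences came from GENCODE M21 (longest coding transcript, 99.3% of genes by symbol) and RefSeq of GRCm38.p6. Percent values were computed as fold changes times 100. Python 3.11.15, pandas 2.3.3, scipy 1.17.1, biopython 1.88 and matplotlib 3.10.9 were used. The recomputed adjustment was tested on simulated data for the 12069 genes, with normal errors of the deposited size. It called 57% of 100 genes given a log2 change of 1 and 84% of 100 given -2, and 6.62% of its calls were false.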

Additional observations from a re-analysis of the deposited data

How the results depend on the processing

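The 2 centrings and the removal of a length and GC trend recompute the fold change. Of 27 such values of the 9 genes, 23 kept their direction and side of the threshold, 2 gained a call and 2 changed sign without a call. The other 7 alternatives leave the fold change as deposited and can move only the call, and 5 of their 63 values lost one. The count of lower members was 2 at adjusted p thresholds of 0.01 and 0.1, without the low-count filter, over genes whose mean normalized count reached 50, with a length and GC trend removed, and centred on genes with a mean of at least 500. It was 1 with a minimum change of 1.5 times, where Scd1 dropped out, and 0 under Holm adjustment (adjusted p = 0.115 for Scd1 and 0.47 for Scd3). It was 0 with a t distribution of 2 degrees of freedom, where no gene passed and the threshold was out of reach. Centring on ribosomal protein genes, which shifted every log2 fold change by -0.11 by subtracting their median of 0.11, gave 4, adding Scd2 (adjusted p = 0.0149) and Srebf1 (adjusted p = 0.0288), and turned Elovl6 to -0.0991. Removing the length and GC trend turned Elovl5 to 0.0237. Lower genes of the other pathway lists numbered 3 at a threshold of 0.1, 2 at a mean of at least 50, 4 centred on ribosomal protein genes, and 0 under Holm and under t, against 1. Higher ones numbered 1 at 0.1 and 1 centred on genes with a mean of at least 500, against 0. Apart from the shifts that the settings impose, the cause was not tested. Leaving out replicates was not run, since the table has no values per sample. No paired analysis was possible because the columns carry no replicate. The low counts of Srebf1, Fads1 and Elovl1 limit what could be called there.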

Other observations

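None of the tested genes around Fads1 was called. Fen1, the flap endonuclease of DNA replication that adjoins Fads1 on chromosome 19, had a log2 fold change of 0.44 ± 0.17 (SE, DESeq2 adjusted p = 0.168) per the authors' deposited table, and the next gene, Tmem258, 0.30 ± 0.17 (adjusted p = 0.444), beside 0.29 ± 0.25 for Fads1. Syt7, beyond these, stood at 1.10 ± 0.97. On the other side of the cluster Fads3 stood at -1.81 ± 0.55, Rab3il1 at -0.08 ± 0.17, Fth1 at 0.00 ± 0.11 and Incenp at 0.26 ± 0.15 per the authors' deposited table. These genes were picked for their position.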
